A study of Mus musculus with 4 samples.

Results

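Regions bound by Deaf1 in C2C12 cells at the ends of genes that make no protein are described here. Shared regions were blocks of overlapping ChIP-seq peaks (at least 1 bp) with a peak of each of the 2 replicates, on chromosomes 1 to 19 and X. The position of a region was the mean of the highest-fold summit of each replicate. A region was a member when that position lay within 1 kb of either end of a noncoding gene and more than 1 kb from every end of a protein-coding gene, by RefSeq gene spans with pseudogenes left out. Of 22880 shared regions, 1150 met the rule, which is 5.03% (exact 95% binomial interval 4.75% to 5.32%, counting error only). Another 11269 shared regions lay within 1 kb of a protein-coding end, 8055 lay deeper inside a protein-coding gene and 2406 lay elsewhere.

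The study immunoprecipitated Deaf1, a transcription factor that binds DNA through a SAND domain, from C2C12 cells, a mouse myoblast line that fuses into myotubes in culture. Chromatin was crosslinked with 1% formaldehyde and prepared with an enzymatic digestion kit, and the antibody group held 2 samples, both unmodified C2C12 cells. The labels call the cells myocytes while the design text speaks of myoblasts that were differentiated, and a day of differentiation is not given. The 2 input samples and the control IgG named in the protocol were not analysed here, and the labels do not tie the replicates to separate cultures, which leaves their spread possibly technical. A cell line without a second condition or a sample lacking Deaf1 limits every value below to a description of where the antibody's signal lay. Peak lists carry no expression values, so neither the myocyte label nor the activity of any gene named here could be checked.

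Noncoding genes make RNAs that act without being translated. Long noncoding RNAs (lncRNAs) are transcribed by RNA polymerase II, often from the same CpG-rich promoter as a coding gene that is read in the opposite direction, and many serve as hosts from which microRNAs or small nucleolar RNAs (snoRNAs) are cut. MicroRNAs pair with messenger RNAs through their seed and lower their output, snoRNAs guide chemical modification of ribosomal RNA, and transfer RNA (tRNA) genes are read by RNA polymerase III from promoters inside the gene. In muscle, microRNAs such as those of the miR-1, miR-133 and miR-206 families are made during differentiation, and lncRNAs such as H19 and Malat1 are abundant.

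The sequences of 6 start windows show the kinds of DNA under these peaks, and each is the RefSeq sequence of GRCm38.p6 (mm10) from 250 bases before to 50 bases after an annotated lncRNA start, 5′ to 3′ on the strand of the noncoding gene. Capitals mark TTCG or its complement CGAA, the core that Deaf1 is known to bind. Gm15952 and Gm41375 are shown as starts shared with a coding gene whose window holds a region of high fold, Dleu2, Lncpint and Jpx as listed regulatory lncRNAs with the summit just before their start, and Mir1a-1hg as the host gene of a muscle microRNA. The position of the Deaf1 region lay inside all 6 windows, from 60 to 182.5 bases before the start.
Gm15952, chr3:35932828-35933127, plus strand: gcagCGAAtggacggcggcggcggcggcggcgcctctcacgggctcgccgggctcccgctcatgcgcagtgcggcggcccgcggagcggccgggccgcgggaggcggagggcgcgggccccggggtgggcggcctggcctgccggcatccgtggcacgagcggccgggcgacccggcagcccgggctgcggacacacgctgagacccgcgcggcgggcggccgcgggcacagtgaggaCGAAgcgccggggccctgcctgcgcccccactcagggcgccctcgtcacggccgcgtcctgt
Gm41375, chr15:86058567-86058866, minus strand: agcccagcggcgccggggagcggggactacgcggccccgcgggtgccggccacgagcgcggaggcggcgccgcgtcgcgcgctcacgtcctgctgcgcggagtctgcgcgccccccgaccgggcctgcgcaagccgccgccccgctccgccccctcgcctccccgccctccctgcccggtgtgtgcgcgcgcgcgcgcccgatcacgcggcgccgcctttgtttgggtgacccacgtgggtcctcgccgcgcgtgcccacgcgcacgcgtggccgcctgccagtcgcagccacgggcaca
Dleu2, chr14:61682324-61682623, minus strand: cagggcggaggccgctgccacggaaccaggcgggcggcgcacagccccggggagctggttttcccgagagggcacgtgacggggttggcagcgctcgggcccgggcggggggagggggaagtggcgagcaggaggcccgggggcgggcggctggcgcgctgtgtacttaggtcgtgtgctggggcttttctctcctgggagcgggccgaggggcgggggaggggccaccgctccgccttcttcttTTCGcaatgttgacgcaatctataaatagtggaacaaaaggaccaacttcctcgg
Lncpint, chr6:31218425-31218724, minus strand: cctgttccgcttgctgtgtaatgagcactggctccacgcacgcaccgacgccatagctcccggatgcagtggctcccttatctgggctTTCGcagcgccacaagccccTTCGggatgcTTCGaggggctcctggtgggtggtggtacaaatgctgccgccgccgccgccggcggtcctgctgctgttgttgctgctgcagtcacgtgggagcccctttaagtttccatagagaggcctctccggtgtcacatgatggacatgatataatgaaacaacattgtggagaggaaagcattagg
Jpx, chrX:103493308-103493607, plus strand: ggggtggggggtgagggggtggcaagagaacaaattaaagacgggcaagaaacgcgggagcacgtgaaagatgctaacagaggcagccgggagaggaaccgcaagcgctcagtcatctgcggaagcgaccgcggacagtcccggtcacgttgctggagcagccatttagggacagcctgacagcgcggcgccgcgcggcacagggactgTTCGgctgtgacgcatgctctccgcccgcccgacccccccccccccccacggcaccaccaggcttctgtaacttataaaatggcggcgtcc
Mir1a-1hg, chr2:180385354-180385653, plus strand: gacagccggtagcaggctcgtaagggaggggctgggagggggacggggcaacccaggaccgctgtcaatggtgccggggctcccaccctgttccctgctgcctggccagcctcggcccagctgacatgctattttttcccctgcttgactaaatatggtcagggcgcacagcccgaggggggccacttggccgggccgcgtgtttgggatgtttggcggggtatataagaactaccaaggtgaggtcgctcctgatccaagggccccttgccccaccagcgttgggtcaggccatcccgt

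These windows differ widely in how many TTCG cores they hold. The Lncpint window had 3 on either strand, Gm15952 had 2, Dleu2 and Jpx had 1 each, and Gm41375 and Mir1a-1hg had 0. The Gm41375 window had the most CG dinucleotides of the 6, at 57, and its region also had the highest replicate 2 fold of all members. The Mir1a-1hg window had the fewest CG, at 15. No match says only that the letters are not in these 300 bases.

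Mature microRNAs are shown where the hairpin itself lay within 1 kb of a member, grouped by shared seed (bases 2 to 8, in capitals), again from RefSeq. The miR-212 and miR-132 genes, the miR-9 genes and their values were picked after their values were seen, for their shared seeds, and the others come from the muscle and let-7 lists or lead by fold.
miR-212-3p: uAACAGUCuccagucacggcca
miR-132-3p: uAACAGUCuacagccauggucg
miR-34b-3p: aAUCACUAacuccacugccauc
miR-34c-3p: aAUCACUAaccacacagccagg
let-7e-5p: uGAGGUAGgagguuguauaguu
let-7i-5p: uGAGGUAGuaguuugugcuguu
miR-9-5p: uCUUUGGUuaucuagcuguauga
miR-760-3p: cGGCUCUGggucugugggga

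Members that share a seed were not always separate regions. Mir212 and Mir132, neighbours on chromosome 11 with the seed AACAGUC, shared 1 region with folds of 23.6 in replicate 1 and 21.6 in replicate 2. Mir34b and Mir34c, with the seed AUCACUA in their 3p arms, shared 1 region inside Btg4 with folds of 14.7 and 16.3. The let-7 genes Mirlet7e and Mirlet7i had a region each, at 14.4 and 12.1 and at 10.04 and 13.1. The miR-9 genes Mir9-1 and Mir9-3 also had a region each, with folds of 13.7 and 8.72 and of 10.2 and 10.2. Of 113 microRNA genes with a member, 106 had mature sequences in the reference, 186 in all with 177 distinct seeds, and 9 seeds occurred in 2 or more of these genes.

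Most noncoding genes had no Deaf1 peak nearby. Of 17415 noncoding genes, 1121 had a member (6.44%), 1335 had a shared region that lay within 1 kb of a protein-coding end (7.67%), 1595 had peaks of replicate 1 alone (9.16%), 91 of replicate 2 alone (0.523%), 27 had peaks of both that did not overlap (0.155%) and 13246 had none (76.1%). With coding ends included, 14.1% of noncoding genes had a shared region within 1 kb. A gene without a peak is one without an entry in the authors' lists, which is not a measured absence of Deaf1. The lists differ in length, with 65606 peaks in replicate 1 and 26503 in replicate 2, and the median number of fragments over a summit, recovered from the deposited fold and p-value, was 19 and 23.

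Fold enrichment, the authors' own value for each peak, is the fragment pileup at the summit over the background that the peak caller estimated. At members the median fold was 11.8 in replicate 1 (quartiles 8.62 and 16.4) and 8.72 in replicate 2 (quartiles 5.69 and 15.6). Regions at protein-coding ends had medians of 15.6 and 13.9, so the member median was 0.758 and 0.628 times theirs. Deeper inside coding genes the medians were 10.5 and 6.83, and elsewhere 9.26 and 6.45. Members thus stood between coding ends and the rest in both replicates, with quartiles that overlap those of every other class. Median width followed the same order, at 516.5 bp for members, 678 bp at coding ends, 431 bp inside genes and 339 bp elsewhere. The median summit pileup of members was 39 fragments in replicate 1 and 23 in replicate 2, against 56 and 41 at coding ends. Of members, 98 (8.52%) were in the top 10% of all shared regions by the lower of both folds, against 15.9% of regions at coding ends.

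**Figure D1:**
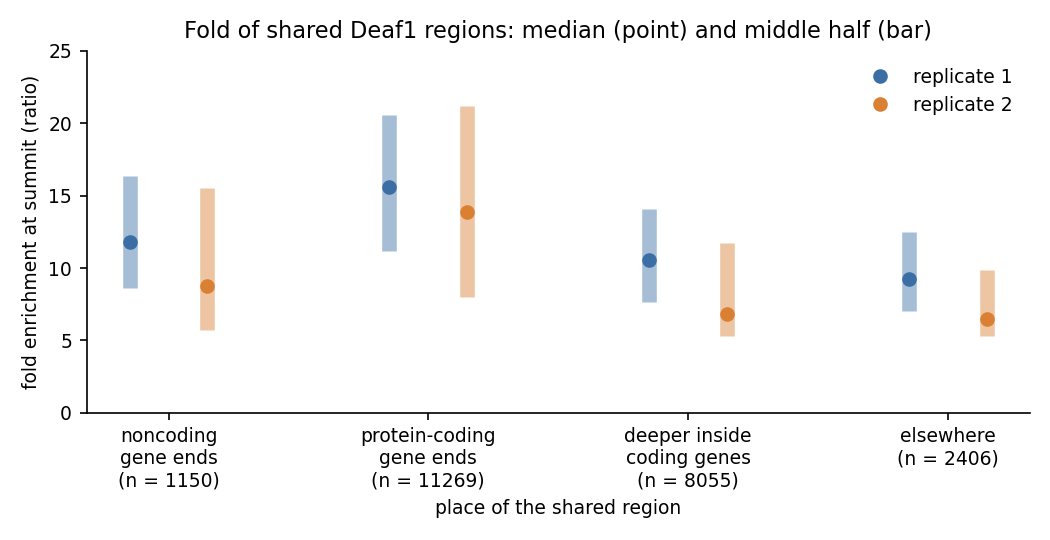
Fold enrichment at the summit (ratio, linear axis) for 4 places of shared regions, with points for the median and bars for the quartile range in each replicate. Member medians of 11.8 and 8.72 lie below those at protein-coding ends (15.6 and 13.9) and above those of both other places.

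By class of the nearest noncoding gene, lncRNAs held most members. They were the nearest noncoding end of 999 regions (86.9%), with median folds of 11.98 and 9.10, and 934 of 12697 lncRNA genes had a member (7.36%). MicroRNA genes were nearest to 103 regions, with medians of 11.5 and 7.58, and 9.20% of microRNA genes had a member. Of those 103 regions, 82 lay inside a protein-coding gene, where many microRNA hairpins are found. tRNA genes were nearest to 18 regions (12.2 and 6.59), and 27 of 408 had a member (6.62%). All but 1 of those 18 lay outside coding genes, the exception being n-TRtcg5 in Polg.

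Small RNA genes of the spliceosome and nucleolus had members less often by count. Of 1340 snoRNA genes 14 had one (1.04%), and of 1003 small nuclear RNA (snRNA) genes 11 did (1.10%). The RefSeq class of miscellaneous RNAs had 10 of 93 (10.8%), and ribosomal RNA genes had 0 of 63 (0.00%). Immunoglobulin and T cell receptor segments, which RefSeq does not class as protein-coding genes and which the rule therefore kept, had 6 of 510 (1.18%), all among the 82 J segments (7.32%). Those J segments shared a single region, with folds of 7.14 and 7.96. Genes of repeated families can be near-identical, and it is not known here how reads with several matches were placed.

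The strongest members by the lower of both folds were mostly at lncRNA ends, as all members were, and many were next to coding starts. Of the top 20, 18 were nearest to a lncRNA, 11 had an annotated protein-coding start within 1 kb and 13 lay inside a coding span. Over all members the shares were 86.9% nearest to a lncRNA and 55.4% inside a coding span. Of the 1121 members with listed starts, 18.2% had a coding start within 1 kb. Every one of the top 20 had a fold of at least 25.9 in both replicates. The first, at chr15:10713831-10715049 and nearest to 4930556M19Rik, had folds of 31.8 and 30.3 and ranked 25 of all 22880 shared regions. It lay 394.5 bp from a start of Rai14, a gene for an actin-associated protein. Its summit pileup was 100 fragments in replicate 1 (exact Poisson 95% interval 81.4 to 122) and 79 in replicate 2 (62.5 to 98.5).

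Several of the strongest members had no coding start nearby. Gm34590, at chr15:36938347-36939174, had folds of 30.3 and 33.0, ranked 27 of all shared regions and lay 58273.5 bp from the nearest coding end, that of Zfp706. 4632428C04Rik, at chr16:30008618-30009332, had folds of 28.0 and 34.1 and lay 56380.5 bp from Hes1, a Notch target that encodes a transcriptional repressor. Gm32998, on the same chromosome and 2700 bp from Hes1, had folds of 26.1 and 33.4. Gm9530 had 26.8 and 30.7 at 12822 bp from Ier5, and Gm41914 had 26.2 and 28.1 inside Agap1. These regions were high in both replicates, and each stood far above the member medians.

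Others had a listed coding start within 1 kb, most of them with a noncoding start within 1 kb as well. Gm41375, inside the Gramd4 span on chromosome 15, had folds of 26.7 and 41.3, the latter the highest replicate 2 fold of all members. Gm15952, at Dcun1d1, had 27.1 and 31.5. Gm33636 at Hdac7, a histone deacetylase gene that is known in muscle as a partner of MEF2, had 29.5 and 26.4. Other paired starts in the top 20 were those of 4930405A21Rik with Dlgap4 (28.0 and 31.5), 2700046G09Rik with Sgms1 (28.0 and 28.9), 9530018F02Rik with Fut8 (27.1 and 30.3) and 8430432A02Rik with Tgfbrap1 (27.1 and 28.4). In each of these pairs the position lay nearer the coding start than the noncoding one. At Hdac7, Sgms1 and Fut8 it was 93.5, 204.5 and 77.5 bp from the coding start. From the noncoding start it was 715.5, 908.5 and 409.5 bp in the same order. At Sp3os, antisense to the gene for the zinc finger factor Sp3, and at Gm6598 a coding start alone was listed within 1 kb. Sp3os had 26.2 and 28.4, with its mean position 60 bp from an Sp3 start but its 2 summits 696 bp apart. Gm6598 had 26.5 and 27.7 at 113 bp from a Tmem248 start. Gm20324 in Tcf20 (26.6 and 28.4, at summits 596 bp apart), 2310034G01Rik (26.5 and 26.2) and Gm11613 near Mllt6 (25.9 and 29.96) complete the lncRNAs.

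Chromosome 15 held 5 of the top 20 members and 76 of all 1150 (6.61%), close to its 6.18% of all shared regions. There the background was above the list's lowest value at 42.1% of members in replicate 1 and 32.9% in replicate 2, against 26.9% and 20.5% of all members, and its part in the folds was not tested. On chromosome 10 those shares were 55.4% and 33.9%.

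Among small RNA genes, the leading microRNAs and the leading tRNA gene had folds near those of the top lncRNAs, and the leading snoRNA and snRNA genes had lower ones. Mir760 had folds of 26.5 and 30.3 at chr3:122292995-122294034, in a region also within 1 kb of the lncRNA gene Gm40190 and the tRNA gene n-TRtct2. Mir1893, inside Epc1, had 25.2 and 35.7 at summits 716 bp apart, so its folds do not compare the same place. Mir1904, inside Pde4d, had 25.2 and 30.7. Among tRNA genes n-TRtcg5 led with 26.8 and 27.4, at 269 bp from a start of Polg, the mitochondrial DNA polymerase gene. The tRNA genes n-TIaat17 (23.7 and 19.7) and n-TPcgg2 (18.4 and 19.1) followed, neither with a listed coding start nearby.

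Snord58b, a snoRNA inside the ribosomal protein gene Rpl17, led its class with 23.3 and 23.5. It lies on chromosome 18, where no starts are listed, so a coding start nearby could not be looked for. Snora78 had 14.4 and 9.08 in a region 299 bp from an Rps2 start, and Gm24335 had 11.3 and 9.48. The snRNA genes Gm23851 (15.6 and 15.7), Gm25064 (8.99 and 11.0) and Gm25268 (10.9 and 6.45) led theirs, the first of them 92.5 bp from a Cops7a start. Of the remaining classes the highest were 4930451G09Rik at Anks3 (25.4 and 26.8), Gm4633 at Cd47 (25.1 and 24.0) and 9130213A22Rik near Hes7 (23.1 and 27.4). Several small RNA genes were thus named by the rule for regions that also touched a coding promoter.

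Many members were near the beginning of the noncoding transcript and few near its finish. The reference gave a strand for 801 of the 999 lncRNA members, and the nearest end was the start in 636 (79.4%) and the finish in 165 (20.6%). Start regions had median folds of 12.5 and 9.86 and finish regions 10.2 and 6.45. The median start region lay 20.25 bp before the start, with quartiles from 281 bp before to 230 bp after, and 349 (54.9%) were within 300 bp. Finish regions were spread more evenly, and 41 (24.8%) were within 300 bp of the finish. Among protein-coding-end regions with a strand, 8170 of 8898 (91.8%) were nearest to the start.

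**Figure D2:**
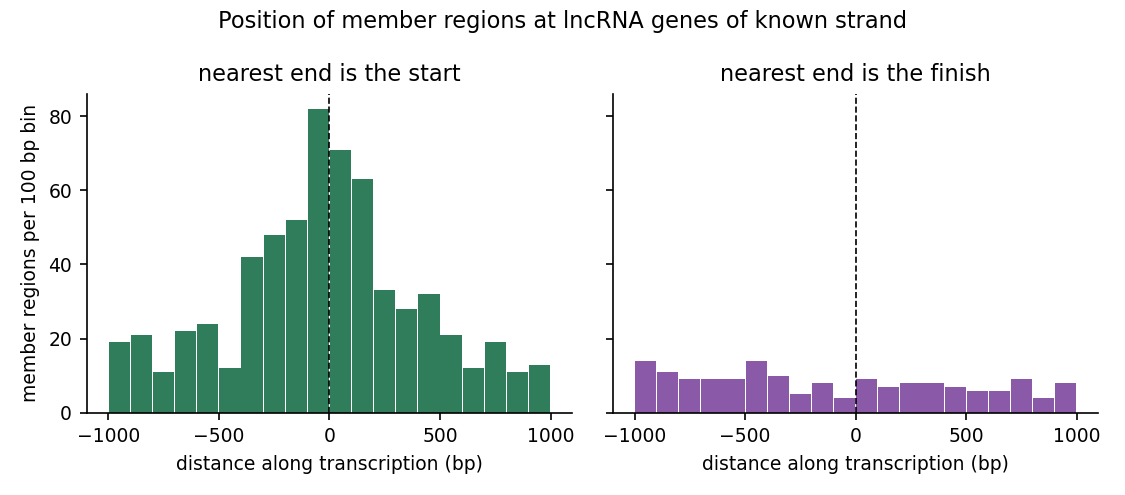
Number of lncRNA members by signed distance in bp from the nearest start or finish, in 100 bp bins, with negative values before the end in the direction of transcription. Start regions pile up at the start, with 82 in the 100 bp before it and 71 in the 100 bp after it, and finish regions show no bin above 14.

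Starts also outnumbered finishes at genes with ends clear of coding gene ends, some of which lie inside coding genes or at their inner starts. Among 6717 stranded lncRNA genes longer than 2 kb with both ends more than 2 kb from any protein-coding end, 388 had a member at the start (5.78%, interval 5.23% to 6.36%) and 93 at the finish (1.38%, interval 1.12% to 1.69%). Of these genes 21 had both, 367 the start and not the finish, 72 the finish and not the start, and 6257 neither. The start regions had median folds of 11.5 and 8.72 and the finish regions 9.89 and 6.45. The intervals cover counting error and treat genes as separate, although neighbours can share a region.

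At 27 noncoding genes longer than 2 kb, both ends had a member. All noncoding genes of that length were not counted, so no share is given. Among the 6717 lncRNA genes above, 21 had both. Neat1, which builds nuclear paraspeckles, had 8.62 and 6.45 at its lower-coordinate end and 19.2 and 9.86 at its higher-coordinate end. Lncpint, a p53-responsive lncRNA, had 13.3 and 10.2 at its start and 7.66 and 3.79 at its finish. Tincr had 8.62 and 4.55 at the lower and 13.1 and 6.83 at the higher end. For 2810410L24Rik both ends were high, at 23.6 and 26.2 and at 14.98 and 16.5. Tincr and 2810410L24Rik were picked after their values were seen.

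Being away from coding gene ends did not put members away from coding genes. Of 1150 members, 637 lay inside a protein-coding span (55.4%, interval 52.5% to 58.3%), with median folds of 13.1 and 9.86, and 513 lay outside with 10.6 and 7.59. The median distance to the nearest coding end was 8473.5 bp and the largest was 617598 bp. The 205 members at 1 to 2 kb from a coding end had medians of 14.98 and 12.4, the 225 at 2 to 5 kb 12.5 and 9.10, the 378 at 5 to 20 kb 11.2 and 7.96, the 285 at 20 to 100 kb 11.5 and 7.59, and the 57 beyond 100 kb 10.4 and 7.59. Folds were thus highest in the nearest bin, and the other bins differed little beside their spread.

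RefSeq spans run over all models of a gene, so inner promoters of coding genes do not count as ends, and the rule let them in. For 1121 members the reference listed transcript starts (it lists none on chromosome 18, which has the other 29), and 204 of them had a protein-coding start within 1 kb (18.2%, interval 16.0% to 20.6%). The share was similar in regions deeper inside coding genes, at 1371 of 7841 (17.5%), so it is not particular to members. The 204 members had median folds of 16.3 and 15.4, above the member medians and close to those at coding ends, while the 917 others had 11.1 and 7.59. Where a coding and a noncoding start both lay within 1 kb (154 members) the medians were 17.2 and 17.3, and with a coding start alone (50) they were 15.6 and 14.4. The 495 members with a noncoding start alone had 11.5 and 8.34, and the 422 with no listed start had 10.7 and 6.83. The label of noncoding gene ends is thus met without a listed coding start nearby at 917 members. At 204 a coding promoter and a noncoding end cannot be told apart as the place of the signal.

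Among the 154 members with both kinds of start, 90 (58.4%) had starts that ran away from each other, with a median gap of 178.5 bp and median folds of 19.1 and 19.6. In 58 (37.7%) the transcripts faced and overlapped, with a median gap of 317 bp and folds of 14.3 and 12.3. The other 6 (3.90%) ran the same way, with folds of 21.2 and 20.5. The Gm15952 and Dcun1d1 starts, 112 bp apart, and the Gm41375 and Gramd4 starts, 111 bp apart, were divergent pairs, and their windows above are among the most CG-rich shown. The Gm33636 and Hdac7 starts faced each other over 809 bp.

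Of 160 matched genes in 10 lists of named noncoding genes, 38 had a member, 19 had a shared region near a coding end, 29 had a peak of replicate 1 alone, 2 of replicate 2 alone, 2 had separate peaks and 70 had none. The share of all noncoding genes with a member was 6.44%, as above. The lists name well-studied genes, so their counts are descriptions and say nothing particular to a list.

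The muscle microRNAs (myomiRs), which act in differentiation and fibre type, had no member in 11 genes. Mir206, Mir133b, Mir1a-2 and the rest of the 10 without a peak are listed in neither replicate, and Mir1a-1 had a peak of replicate 1 alone, with a fold of 5.11. The host transcript Mir1a-1hg did have a member, 81 bp before its start, with folds of 10.9 and 6.07, a gene picked after its values were seen. Other microRNAs tied to atrophy and regeneration had 4 of 36 genes with a member. Mir378a, inside Ppargc1b and known in mitochondrial metabolism, had 19.6 and 20.9. Mir34b and Mir34c, p53 targets, had the shared 14.7 and 16.3, and Mir26a-1, in Ctdspl, had 8.30 and 5.31. Of the others 7 had a peak of replicate 1 alone, 2 had separate peaks and 23 had none, among them Mir29a, Mir21a and Mir221.

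The let-7 microRNAs, which restrain growth-promoting messenger RNAs in differentiated cells, had 2 of 12 genes with a member. The Mirlet7e region also lay near a Spaca6 start, while Mirlet7i stood alone, 6075 bp from Mon2. The Mirlet7i pileups were 91 and 81 fragments over raised backgrounds of 8.16 and 5.25. The lowest backgrounds of the lists were 2.13 and 1.64. Mirlet7b and Mirlet7c-2 had a peak of replicate 1 alone and the other 8 had none.

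Hosts of microRNAs had 7 of 17 genes with a member, with medians of 10.5 and 6.45 over their regions. Dleu2, the host of miR-15a and miR-16-1, was the highest with 20.1 and 27.3 and pileups of 86 fragments (exact Poisson 95% interval 68.8 to 106) and 74 (58.1 to 92.9). Mir124a-1hg had 11.8 and 11.8 at 968 bp from its lower-coordinate end, and Mir9-3hg had 10.5 and 12.1 at 33.5 bp from its start. Mirg had 8.30 and 6.45 at 981.5 bp from its finish, not near its start. Carmn, the host of miR-143 and miR-145, had 9.90 and 4.93, and Ftx had 10.2 and 4.74. Mir22hg had 16.0 in replicate 1 against 4.42 in replicate 2, at summits 539 bp apart within the merged region. The replicates thus differed in how they ranked these hosts. Mir17hg, host of a microRNA cluster that drives cell growth, had a peak of replicate 2 alone. The list also holds Mirt1 and Mirt2 (replicate 1 alone), whose standing as hosts was not checked.

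Hosts of snoRNAs, whose promoters often carry the pyrimidine tract of ribosomal protein genes, had 8 of 22 genes with a member and medians of 15.7 and 13.2, above the member medians. Snhg5 had 21.7 and 15.1, Dancr 18.6 and 16.3, Snhg20 17.5 and 15.6, Epb41l4aos 15.8 and 16.3, Snhg3 12.5 and 11.4 and Snhg15 15.6 and 11.1. The lowest of the group, Snhg4, had 7.39 and 8.34, and Snhg9 shared the Snora78 region at Rps2. Another 5 had a shared region near a coding end, among them Gas5 (22.8 and 16.2, at Zbtb37) and Zfas1 (20.1 and 20.2, at Znfx1). Of the remaining genes 4 had peaks of replicate 1 alone, Snhg1 of replicate 2 alone, and 4 had none.

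Of lncRNAs studied in muscle cells, 5 of 15 had a member, with medians of 10.4 and 9.10. Pvt1, beside Myc, had 17.7 and 12.9 at 47596 bp from the Myc gene, and Miat had 10.4 and 9.10. Neat1, Lncpint and Carmn are given above. Gas5 and Tug1 (22.4 and 22.2, at Morc2a) had shared regions near coding ends. H19 (4.79), Meg3 (4.47) and Dubr (8.62) had a peak of replicate 1 alone, and Malat1, Myhas, Dnm3os, Mhrt and Lincmd1 had none. The highest folds on this list were thus at Gas5 and Tug1, in regions next to coding gene ends.

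Imprinted noncoding RNAs, some of which silence neighbouring genes on one parental chromosome, had 4 of 11 with a member. Their medians were 9.26 and 5.65, below those of all members. Kcnq1ot1 had 9.58 and 4.55, Airn 8.94 and 10.6, Gnasas1 10.9 and 4.85 and Mirg the 8.30 and 6.45 given above. In the X inactivation centre, Jpx, an activator of Xist, had 12.8 and 10.2 at 60 bp before its start, and Ftx had 10.2 and 4.74. Xist and Tsix had no peak and Firre had a peak of replicate 1 alone.

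Genes of the RNA machinery had 3 of 21 with a member. Terc, the RNA template of telomerase, had 19.6 and 17.4 at chr3:96414211-96414882, with pileups of 71 fragments (55.5 to 89.6) and 45 (32.8 to 60.2) and the nearest coding end 19154 bp away. Rnu3b1, a U3 snoRNA gene, had 5.11 and 4.42, and Neat1 is given above. Rmrp (15.2 and 15.6) and Rnu12 (17.5 and 19.1) were among 5 genes with a shared region near a coding end. Rn7sk and Rpph1 were among 10 without a peak. Several of these RNAs have near-identical copies, so reads may be split among them.

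Antisense and neighbour lncRNAs of developmental genes had 7 of 23 with a member and 8 more near a coding end, and values of 6 of those members follow in no order of fold. Hoxb3os had 18.8 and 12.5 at 959.5 bp from its finish. Six3os1 had 13.7 and 14.0, Nkx2-2os 14.7 and 11.4 and Tbx3os1 10.9 and 8.34. Dlx1as had 2 weaker regions, at 9.58 and 4.55 and at 7.66 and 4.93, and Zfhx2os had 7.02 and 4.55. Fendrr, with 18.8 and 15.9, was among those near a coding end. All 8 regions of these 7 members lay inside a coding span, and the coding and the antisense gene cannot be told apart as the place of the signal.

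**Figure D3:**
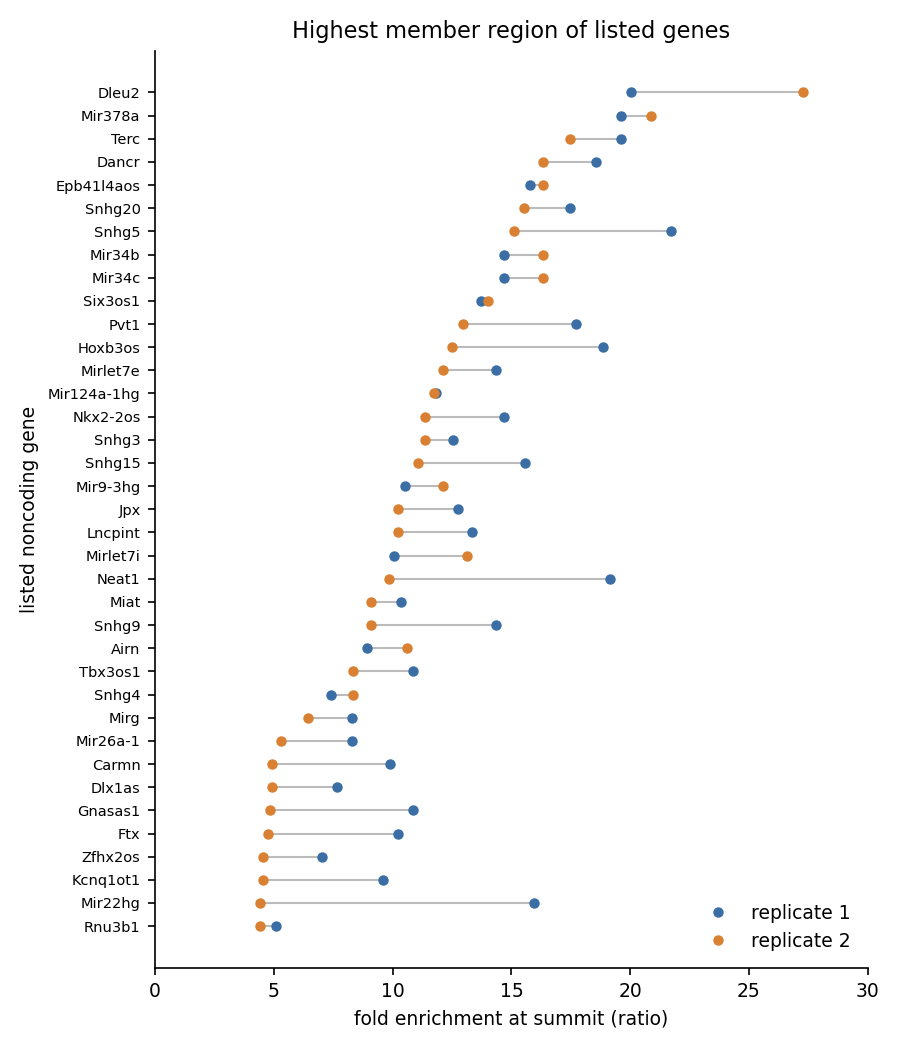
Fold enrichment (ratio, linear axis) in each replicate for the highest member region of the listed noncoding genes that are reported, in order of the lower fold. Dleu2 has the highest value shown, 27.3 in replicate 2. Mir22hg has one of the widest gaps, 16.0 against 4.42, from summits 539 bp apart.

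The replicates ranked members alike. Across the 1150 members Spearman's rho of the folds was 0.826, a description over regions that share 2 libraries. In 82.9% of members the highest summits lay within 100 bp of each other, and 1052 had a single peak of each replicate. The fold was higher in replicate 1 at 826 members and in replicate 2 at 324, and it differed by more than 2 times at 110. A fold of 20 or more in both was reached by 125 members, and 198 had a fold under 5 in at least 1 replicate. These counts are not given for the other shared regions. Replicate 1 also had the larger median in each other class, so that lean is not particular to members. Medians were 15.6 against 13.9 at coding ends, 10.5 against 6.83 deeper inside coding genes and 9.26 against 6.45 elsewhere.

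The widest gaps toward replicate 1 were at n-TPtgg7 (15.6 against 3.79), Mir22hg, Gm30048 (10.2 against 3.24), Gm11523 (10.5 against 3.41) and Mir6945 (12.8 against 4.17). The Mir22hg summits lay 539 bp apart, so its folds do not compare the same place. At n-TPtgg7 the pileup was 48 fragments in replicate 1 (interval 35.4 to 63.6) and 9 in replicate 2 (4.12 to 17.1). The widest toward replicate 2 were at Mir7653 (10.7 against 29.6), Gm31936 (6.88 against 16.5), Gm46600 (12.6 against 28.8), Rap1gapos (11.6 against 25.8) and Gm34507 (15.7 against 32.3). At Mir7653 the pileups were close, at 81 and 77 fragments, and the background was 6.68 in replicate 1 against 1.64 in replicate 2. The gap in fold there lay in the estimated background and not in the pileup.

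**Figure D4:**
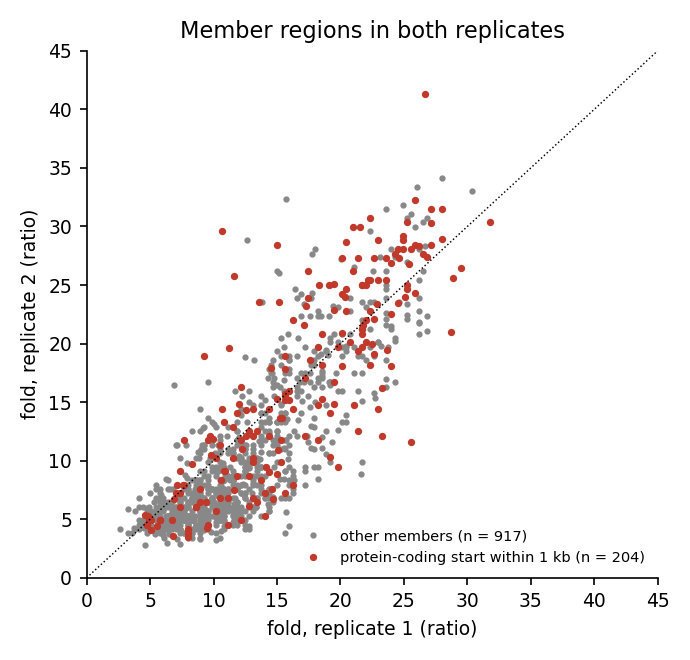
Fold of each member in replicate 1 (x axis) against replicate 2 (y axis), both as linear ratios, for the 1121 members with listed starts; red points are the 204 with a protein-coding start within 1 kb and the dotted line marks equal folds. Most grey points lie below the line at folds under 15, and the highest replicate 2 value is 41.3.

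Regions on either side of the 1 kb limit are given as examples. The last members inside it were 4930506A18Rik and Gm15217, both at 998 bp (13.1 and 5.69, and 15.6 and 14.0), and Gm35631 at 997.5 bp (12.1 and 10.2). Just outside were Gm13201 at 1000.5 bp (7.98 and 7.96), 4930578M01Rik at 1001 bp (7.70 and 7.26) and 1700020G03Rik at 1001.5 bp (15.6 and 17.4). In 74 regions more than 1 noncoding gene had an end within 1 kb, so 1121 genes and 1150 regions are not a matching of one to one.

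The DNA at noncoding starts under a member was rich in CG. In 225 windows of 300 bases that held a member position (213 genes), the median number of CG dinucleotides was 24 and the GC content 65.7%. In 8476 noncoding windows without a peak of either replicate within 1 kb the median was 3 and the GC content 46.7%. Protein-coding windows with a shared position (3218) had a median of 30. Over all 32618 windows of the reference the median was 7. The member windows were not split by whether a coding start lay nearby. Since 154 members had both kinds of start within 1 kb, some of these windows may also be coding promoters. The word shares below carry the same limit.

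The TTCG core, searched on both strands, was in 54.2% of the member windows, 30.8% of noncoding windows without a peak, 59.4% of coding windows with a shared position and 44.9% of all windows. Since CG-rich windows hold more CG-containing words, windows of like CG count were set side by side. With 10 to 19 CG, TTCG was in 51.4% of 74 member windows and 65.4% of 433 without a peak. With 20 or more it was in 57.0% of 135 and 59.5% of 42, and with 0 to 9 in 43.8% of 16 and 28.8% of 8001. At like CG content the core was thus no more frequent under members, except in the CG-poor bin of 16 windows. TTCG twin cores whose first bases lie 6 to 15 bases apart were in 4.44% of member windows, as in Lncpint above, 0.613% of noncoding windows without a peak and 2.24% of all windows. At like CG count the order went both ways, at 1.35% under members against 4.39% without a peak for 10 to 19 CG and 6.67% against 2.38% for 20 or more.

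Other words are given first without regard to CG count. GGGCGG, the box bound by Sp1 and its relatives, was in 64.9% of member windows, 6.62% of noncoding windows without a peak, 85.0% of coding windows with a shared position and 35.9% of all windows. CACGTG, the E-box of Myc and of clock factors, was in 12.9%, 5.10%, 11.8% and 7.2% in the same order. CAGCTG, an E-box used by MyoD, was in 19.1%, 17.3%, 15.3% and 16.4%. CCGGAAG, an ETS factor word, was in 5.78%, 2.38%, 16.8% and 8.92%. TATAAA was in 3.56%, 18.3%, 3.57% and 13.7%, and CCAAT was in 22.7%, 37.7%, 30.05% and 37.6%. TGACTCA, the AP-1 site, was in 2.67%, 6.98%, 2.36% and 5.22%. In windows with 20 or more CG, GGGCGG was in 78.5% under members and 76.2% without a peak, and with 10 to 19 CG in 45.9% and 19.6%. With 0 to 9 CG it was in 37.5% and 5.55%, the former of 16 windows. The words below are given at 20 or more and then at 10 to 19 CG. CCGGAAG changed its order at like CG, with 5.93% against 14.3% at 20 or more and 5.41% against 8.31% at 10 to 19. CACGTG went both ways, with 16.3% against 11.9% and 8.11% against 9.47%. TATAAA kept its order, with 5.19% against 19.05% and 1.35% against 12.9%. So did CAGCTG, with 16.3% against 4.76% and 23.0% against 19.2%, and CCAAT, with 25.9% against 35.7% and 16.2% against 35.8%. TGACTCA went both ways, with 2.22% against 0.0% and 2.70% against 5.54%. The group without a peak had only 42 windows with 20 or more CG. In the plot of motif shares these words stand as SP/KLF, bHLH, myogenic bHLH, ETS, TBP, NF-Y and AP-1. TTCG is the only word here known for Deaf1, and a match is a description of the DNA, not a binding site.

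**Figure D5:**
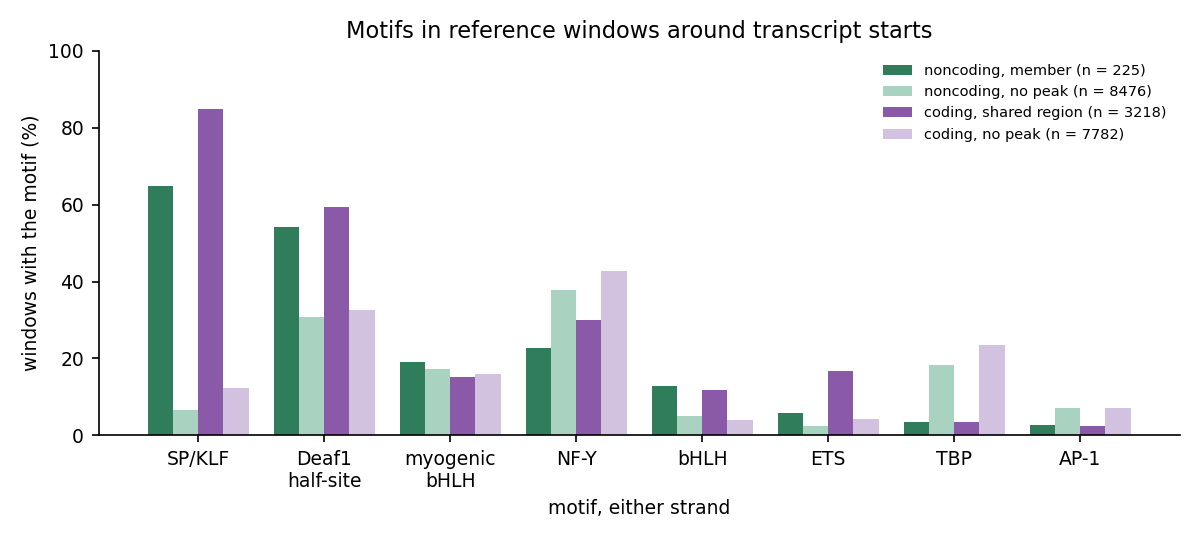
Share of 300-base start windows (percent, linear axis from 0) that hold each word, for noncoding windows with a member position (n = 225), noncoding windows without a peak (n = 8476), coding windows with a shared position (n = 3218) and coding windows without a peak (n = 7782); the motif names stand for the words spelled out in the text. The Sp1 box (SP/KLF) shows the widest gap between the first and second group, 64.9% against 6.62%. In windows with 20 or more CG these shares are 78.5% of 135 against 76.2% of 42. With 10 to 19 CG they are 45.9% against 19.6%, and with 0 to 9 CG 37.5% against 5.55%.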

How the data were processed

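The tools named per the submitters' processing notes were BWA and MACS2, with the mm10 build. Not given in the sources used here are their versions, their settings and the control library used in calling. For each of the 2 Deaf1 ChIP replicates there was a separate list, so the authors called peaks per sample. The fold enrichment (a ratio), the −log10 p-value and the −log10 q-value of each peak are the authors' deposited values. As for the score column the authors deposited, it was the −log10 p multiplied by 10 without its decimals in 100% of peaks, and it was not used. Deposited starts, ends and summits were converted to 1-based positions. Median peak width was 257 bp in replicate 1 and 293 bp in replicate 2, the median fold over all peaks was 6.07 and 8.34, and 11 and 31 peaks had a q-value above 0.05. Replicate 1 had 24 and replicate 2 had 18 peaks on unplaced sequences, which were left out with the mitochondrial ones.

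No read depth is given in the files. The whole-number pileup that returns the deposited fold and p was recovered from Poisson tail probabilities, the fold being pileup plus 1 over background plus 1, with a largest misfit in −log10 p of 4.07e-05 and 3.87e-05. Region placement and pileup recovery were tested on simulated data, where 320 of 320 regions and 100% of 1953 pileups came out right. Intervals of shares are exact Clopper-Pearson and those of pileups exact Poisson, both at 95%, and cover counting error only.

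Gene spans (17415 noncoding and 21627 protein-coding genes), transcript starts and sequences came from RefSeq tables of GRCm38.p6, the assembly behind mm10. Starts were listed for 9520 noncoding and 17273 coding genes and for none on chromosome 18. A background counted as raised when it exceeded the lowest of its list by over 0.003 fragments. With 1 group and 2 lists no test between groups was made, and values are described by counts, medians and quartiles. The members and the 10 gene lists were chosen with earlier results of these data known. Of the list entries 160 distinct genes matched and 10 entries did not. Genes were named by rule: the top 20 members by the lower of both folds, the top 3 of each small RNA class, up to 6 listed genes per list, 3 members on each side of the 1 kb limit and the 5 widest replicate ratios in each direction. A listed gene's values are not reported here, though its list's counts include it. Other genes named are given as picked after their values were seen, or belong to a list or a described region. Alternatives changed the window, the peak threshold, the overlap, the list length, the annotation, the position and the replicate used. Computations used Python with numpy 2.4.6, pandas 2.3.3 and scipy 1.17.1.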

Additional observations from a re-analysis of the deposited data

Results flagged for a closer look

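The mitochondrial genome lies outside the rule for these regions. In replicate 2, 3 peaks there had a summit within 1 kb of a tRNA or ribosomal RNA gene end, with a highest fold of 2.57, while replicate 1 had 0 peaks of that kind. They were flagged as signal in data that no comparison above uses, and input libraries, which would show the background there, were not analysed here.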

How the results depend on the processing

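Of 76 values recomputed for 7 results under 11 alternatives, 63 stayed within their spread or within 1.5 times the count. The alternatives that kept them there were a fold or a −log10 q of at least 5, an overlap of 50% of the shorter peak, replicate 1 shortened to the length of replicate 2, genes without LOC symbols, and the block's midpoint. Leaving out members inside coding spans left 513 members, 2.24% of shared regions, 527 genes and a lncRNA share of 90.3%, which follows from the smaller set. A 500 bp window gave a member share of 3.85% and 58.9% inside coding spans, and a 2 kb window a share of 5.93%, by the construction of the rule. With a single replicate's list the members numbered 1345 (replicate 2 alone) to 3221 (replicate 1 alone), against 1150 with both. Their share ran from 4.91% to 5.08% and the genes from 1224 to 2606. The median fold was 6.07 to 7.96 (10.3 as the mean of both replicates) and the ratio to coding ends 0.543 to 0.618 (0.693 with both). The lncRNA share was 84.9% to 87.4% and the share inside coding spans 51.8% to 55.5%. No paired analysis was possible because only the Deaf1 ChIP group had peak lists, although the input samples carry the same replicate numbers. Depth limits what a missing peak shows: the members had a median of 23 fragments over the summit in replicate 2, and a gene without a peak may carry signal under the caller's threshold.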
